A study of Mus musculus with 9 samples.

Results

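The genes described here are 33 immediate early genes of the T cell receptor response, measured in Tfh cells, the CD4 T cells that help B cells in germinal centres, sorted from mouse Peyer's patches. They were taken by symbol from the 54146 genes of the deposited table, and all 33 were found. The WT/mut group holds 5 libraries (replicates 6 to 10) from mice with 1 mutant and 1 wild-type allele of Tgfbr1, the gene of a TGF-beta receptor subunit. The WT group holds 4 libraries (replicates 1, 3, 4 and 5) from wild-type littermates. In all 9 libraries the cells were sorted for the surface proteins CD4, CXCR5 and PD1. The labels give no age, sex, litter, sorting day or batch, and they name neither the mutation nor the cells that carry it, so changes within Tfh cells cannot be told apart from effects of other cells of the mouse. Whether libraries stand for separate animals is not stated either, and a p-value here reflects the spread among libraries, which may be technical.

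Immediate early genes are transcribed within minutes of a signal at a cell's surface, from factors that are already present and need no new protein. In T cells the receptor for antigen does this through the MAP kinase, calcium and NF-kB branches, and the products include transcription factors of the Nr4a, Egr and AP-1 families as well as phosphatases, RNA-decay factors and NF-kB inhibitors that shut the signal off again. Tfh cells contact B cells repeatedly in germinal centres, and transcripts of this kind are often read as a trace of recent contact. The same genes also answer growth factors and stress, including the handling of tissue.

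Between genotypes, none of the 32 members that could be tested passed in either direction after adjustment over all genes (edgeR quasi-likelihood test, Benjamini-Hochberg adjusted p under 0.05), where 0.122% of all 15521 tested genes passed, 0.0902% lower and 0.0322% higher in WT/mut cells. At an unadjusted p under 0.05, 7 members were lower in WT/mut cells (Nr4a1, Egr1, Egr2, Junb, Ppp1r15a, Dusp1 and Nfkbid) and 2 were higher (Tnfaip3 and Cd44). That is 28.1% of the tested members, beside 12.2% of all tested genes, 6.46% lower and 5.69% higher. With a minimum count of 50 in the filter, the share over all tested genes was 14.1%, and 9 members had such a p. Of the 32 members 18 had a negative log2 fold change (WT/mut over WT) and 14 a positive one, beside 49.8% negative over all tested genes. Their median was -0.13, beside 0.0015 over all tested genes, and without WT replicate 3 it was 0.0041. The count of lower members was 4 without WT replicate 1 (Nr4a1, Egr1, Egr2 and Nfkbid) and 11 without WT/mut replicate 10, where 8.79% and 11.9% of all genes had an unadjusted p under 0.05 in either direction. Higher members numbered 1, Cd44, without WT/mut replicate 6, WT/mut replicate 8 or WT replicate 3. Junb had an unadjusted p above 0.05 without WT/mut replicate 6, 7, 8 or 9 or WT replicate 1, and Tnfaip3 without WT/mut replicate 6 or 8 or WT replicate 1 or 3. DESeq2 called 2 members, Egr1 and Egr2, both lower in WT/mut cells, beside 2.86% of the genes it tested, 1.3% lower and 1.56% higher.

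**Figure D1:**
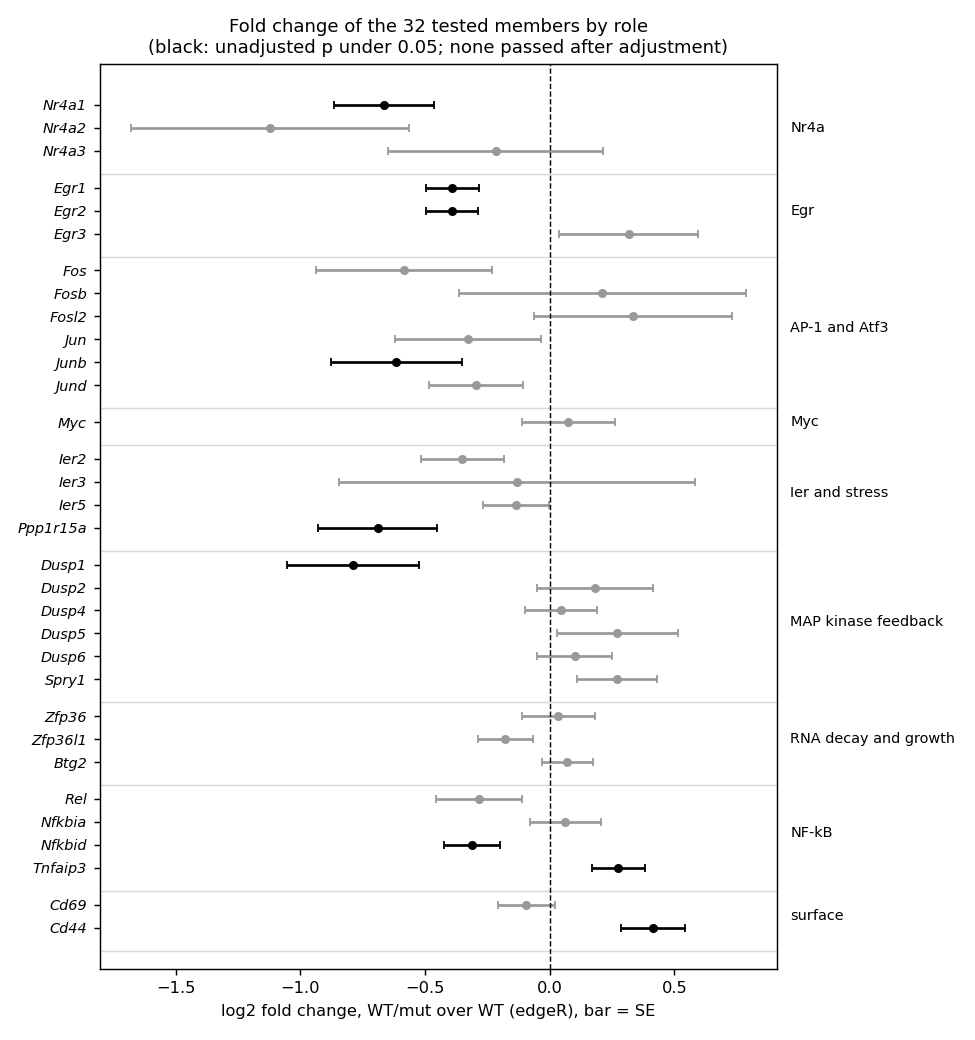
Log2 fold change, WT/mut over WT, of the 32 tested members, grouped by role, with bars for the SE from edgeR. The 9 members in black had an unadjusted p under 0.05, 7 of them left of 0 and 2 right of it, and all 32 missed the adjusted threshold.

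The sorted cells carried the transcripts of their label. The 13 Tfh markers examined had counts in every library. They summed to 8575 to 8972 CPM over WT/mut and 9105 to 10240 CPM over WT libraries, so that the ranges did not overlap. With edgeR, 4 of 13 were lower in WT/mut cells and 0 higher at an unadjusted p under 0.05, beside 6.46% and 5.69% of all tested genes. Of the 13, 3 had separate ranges, all lower, beside 2.4% of all tested genes. After adjustment edgeR called 0 of the 13. DESeq2 called 3, all lower in WT/mut cells, beside 1.3% of the genes it tested. Total counts per library lay between 29488783 and 43872686. WT/mut replicate 7 had 30143 genes with a count, against 17904 to 20264 in the other 8 libraries. The 16 pairs of libraries within groups differed by a mean chi-square per gene of 28.0 to 224, which is more than counting noise gives for 1 library sequenced again. It does not tell separate animals from separate preparations of the same RNA.

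Markers of other cells were present too. The 12 plasma cell markers summed to 652 to 1630 CPM over WT/mut and 346 to 619 CPM over WT, the 12 B cell markers to 381 to 827 CPM over WT/mut and 257 to 508 CPM over WT, the 6 red cell markers to 398 to 869 CPM over WT/mut and 98.4 to 282 CPM over WT, the 12 epithelial markers to 42.2 to 354 CPM over WT/mut and 162 to 644 CPM over WT, and the 13 myeloid and dendritic cell markers to 57.1 to 318 CPM over WT/mut and 53.6 to 183 CPM over WT libraries. The ranges were separate for plasma cell and red cell markers and overlapped for the others. At an unadjusted p under 0.05, 7 of 11 tested plasma cell markers, 5 of 5 tested red cell markers and 3 of 12 B cell markers were higher in WT/mut cells. Of all tested genes 5.69% were higher at that threshold. Of the epithelial markers 1 of 12 was lower, or 8.33%, near the 6.46% of all tested genes. After adjustment edgeR called 0 of these markers, beside 0.122% of all tested genes. DESeq2 called 4 plasma cell and 5 red cell markers, all higher in WT/mut cells, beside 1.56% of the genes it tested. Tnfrsf17, a plasma cell marker, had no count in 7 of the 9 libraries. Some of the plasma cell list, such as Irf4, Xbp1 and Prdm1, are also genes of T cells. B cells use immediate early genes too. With the summed plasma cell markers added to the fit, 0 members and 2.85% of all genes had an unadjusted p under 0.05. Because the plasma cell ranges of the groups did not overlap, that share and genotype can hardly be told apart in these libraries. In bulk RNA, fewer cells of a type and less RNA per cell cannot be told apart.

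The members differed widely in level. To set one gene beside another, CPM was divided by the length of its merged exons in kilobases (GENCODE M21 on GRCm38), and levels are given as mean ± SD over 5 WT/mut and 4 WT libraries. Per kilobase, the highest mean in WT cells was that of Junb, a subunit of the dimeric factor AP-1, at 122 ± 31.8 in WT/mut and 186 ± 82.5 in WT cells, and the highest in WT/mut cells that of Nfkbia, the NF-kB inhibitor IkappaB-alpha, at 184 ± 22.2 in WT/mut and 176 ± 33.5 in WT cells. Jund, another AP-1 subunit, stood at 135 ± 35.6 in WT/mut and 165 ± 33.3 in WT. Dusp1, a phosphatase of p38 and JNK kinases, stood at 94.8 ± 26.8 in WT/mut and 164 ± 64.5 in WT. Btg2, an antiproliferative factor that promotes removal of the poly(A) tail, stood at 134 ± 4.30 in WT/mut and 128 ± 18.2 in WT. In WT cells these 5 levels lay within their joint SDs (the SDs of both genes added) of each other, so their order there is not settled. In WT/mut cells Nfkbia lay above Junb, Dusp1 and Btg2 by more than the joint SDs, but not above Jund. The next genes in the WT order, Jun, Nfkbid, Cd69, Egr2, Egr1, Dusp6, Ier2, Zfp36, Ppp1r15a, Dusp2, Ier5, Fos, Zfp36l1, Cd44, Nr4a1, Tnfaip3 and Spry1, lay between 80.5 and 16.2 CPM per kilobase. Among these, neighbours differed by more than their joint SDs at 3 steps, below Jun, below Egr1 and below Zfp36l1. Below them came Myc, Dusp4, Rel and Dusp5, at 8.56, 8.34, 6.35 and 3.28 CPM per kilobase in WT cells, where neither Myc and Dusp4 nor Dusp4 and Rel differed by more than their joint SDs. Nr4a2, Egr3, Ier3, Nr4a3, Fosb, Fosl2 and Atf3 lay at 1.29 CPM per kilobase or less in WT cells.

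**Figure D2:**
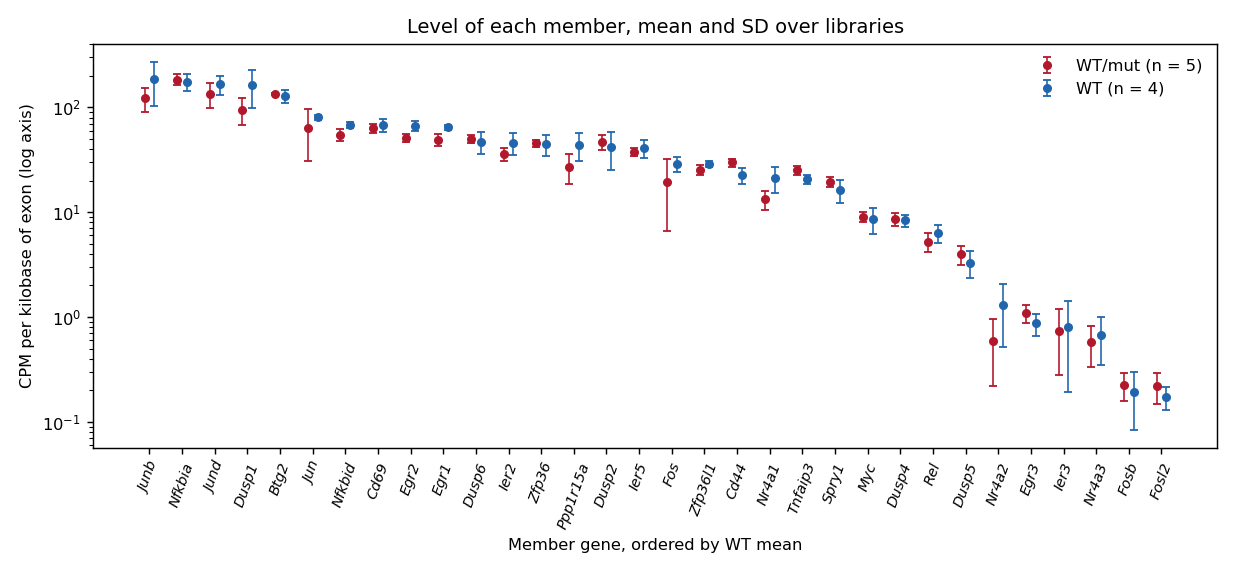
Level of 32 members in CPM per kilobase of exon on a log axis, ordered by the WT mean, with points for group means and bars for the SD over 5 WT/mut and 4 WT libraries. Atf3 is left out because its WT libraries held no count. Levels fall from 186 for Junb to 0.173 for Fosl2 in WT cells.

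The start sites of the members were searched for the letters of factors known to drive such genes. RefSeq promoter windows on GRCm38.p6, running from 250 bases before a transcript's start to 50 after it, were matched by symbol to 27 of the 33 members in 34 windows; Egr1, Egr3, Myc, Ier2, Dusp4 and Cd69 were not matched. The cAMP response element TGACGTCA, a palindrome bound by CREB and ATF factors, was found on either strand in 4 of the 34 windows, those of Dusp1, Ppp1r15a, Nfkbid and Btg2, beside 1.79% of all 32851 windows and 3.02% of the 12298 windows of tested genes. Its shorter form TGACG, which lies within it, was found in 18 of 34 windows, of 16 genes, beside 20.8% of all windows and 30.3% of those of tested genes. The CArG box, bound by serum response factor, was in 6 of 34 windows, beside 1.63% of all windows and 1.41% of those of tested genes. These windows belong to 3 of 27 member genes (11.1%), Egr2, Dusp5 and Zfp36. Overlapping windows of Egr2 hold the same box, which was thus counted more than once. A further Egr2 window, which does not overlap them, holds a different box. The NF-kB site was in 9 of 34 windows, beside 4.51% of all windows and 5.3% of those of tested genes. These were the windows of Nfkbia, Nfkbid, Tnfaip3, Rel, Fos, Fosb, Fosl2, Ier3 and Nr4a1. The AP-1 letters TGANTCA were in 2 of 34 windows, of Tnfaip3 and Zfp36l1, beside 7.81% of all windows and 5.27% of those of tested genes. GCGTGGGCG, bound by Egr factors, was in 0 of 34, beside 0.612% and 1.19%. A match describes letters only, and several member genes have more than 1 window.

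The following 7 windows are shown because they belong to members that the results turn on and hold a searched motif, with Btg2 beside them as the fourth gene with TGACGTCA. Windows of other members with a motif, such as that of Junb with TGACG, are not shown. Further searched motifs in the 7 windows, such as the NF-kB site in Nr4a1, are left in lower case. Capitals mark TGACG or its complement CGTCA in Nr4a1, TGACGTCA in Dusp1, Ppp1r15a, Nfkbid and Btg2, the CArG box in Egr2, and the NF-kB sites in Tnfaip3. Each reads 5′ to 3′ on the gene's strand.
Nr4a1, chr15:101266596-101266895, plus strand: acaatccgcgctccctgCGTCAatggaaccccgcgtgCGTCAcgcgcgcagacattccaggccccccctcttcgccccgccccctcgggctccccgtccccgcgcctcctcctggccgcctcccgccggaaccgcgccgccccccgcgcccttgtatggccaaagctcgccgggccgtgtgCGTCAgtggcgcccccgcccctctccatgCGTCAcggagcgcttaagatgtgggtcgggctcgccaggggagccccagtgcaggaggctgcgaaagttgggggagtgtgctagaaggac
Dusp1, chr17:26508423-26508722, minus strand: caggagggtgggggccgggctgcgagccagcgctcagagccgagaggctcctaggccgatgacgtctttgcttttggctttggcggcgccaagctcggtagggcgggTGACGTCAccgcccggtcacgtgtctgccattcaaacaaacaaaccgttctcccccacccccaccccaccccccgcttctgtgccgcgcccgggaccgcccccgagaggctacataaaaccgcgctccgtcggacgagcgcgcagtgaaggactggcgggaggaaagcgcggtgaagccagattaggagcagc
Ppp1r15a, chr7:45526219-45526518, minus strand: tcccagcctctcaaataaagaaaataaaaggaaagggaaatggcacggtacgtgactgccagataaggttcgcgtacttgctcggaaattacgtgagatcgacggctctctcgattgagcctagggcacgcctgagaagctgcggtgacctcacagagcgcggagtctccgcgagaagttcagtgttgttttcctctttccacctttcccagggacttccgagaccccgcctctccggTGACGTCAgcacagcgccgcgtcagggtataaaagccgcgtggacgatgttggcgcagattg
Nfkbid, chr7:30422156-30422455, plus strand: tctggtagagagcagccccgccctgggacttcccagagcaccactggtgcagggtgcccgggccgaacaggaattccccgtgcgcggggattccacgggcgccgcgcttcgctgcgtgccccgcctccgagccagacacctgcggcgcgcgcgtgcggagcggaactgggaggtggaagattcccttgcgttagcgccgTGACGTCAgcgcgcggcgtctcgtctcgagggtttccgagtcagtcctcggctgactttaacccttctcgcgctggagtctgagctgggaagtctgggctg
Btg2, chr1:134079106-134079405, minus strand: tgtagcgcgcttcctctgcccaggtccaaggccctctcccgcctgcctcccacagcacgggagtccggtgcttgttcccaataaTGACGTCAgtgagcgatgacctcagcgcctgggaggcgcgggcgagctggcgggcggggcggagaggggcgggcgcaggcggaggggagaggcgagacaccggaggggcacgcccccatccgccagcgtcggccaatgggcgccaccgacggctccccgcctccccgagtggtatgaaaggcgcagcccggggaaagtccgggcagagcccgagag
Egr2, chr10:67537619-67537918, plus strand: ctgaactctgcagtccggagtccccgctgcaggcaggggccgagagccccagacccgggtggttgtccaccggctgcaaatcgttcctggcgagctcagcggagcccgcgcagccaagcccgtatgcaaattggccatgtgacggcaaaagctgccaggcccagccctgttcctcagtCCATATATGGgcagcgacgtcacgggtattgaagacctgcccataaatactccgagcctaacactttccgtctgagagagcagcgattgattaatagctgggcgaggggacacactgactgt
Tnfaip3, chr10:19015361-19015660, minus strand: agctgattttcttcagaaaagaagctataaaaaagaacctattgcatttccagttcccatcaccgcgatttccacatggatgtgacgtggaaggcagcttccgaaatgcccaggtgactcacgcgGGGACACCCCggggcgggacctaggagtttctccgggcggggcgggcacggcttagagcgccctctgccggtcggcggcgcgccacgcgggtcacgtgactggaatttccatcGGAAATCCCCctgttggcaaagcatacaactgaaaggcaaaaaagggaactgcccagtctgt

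Among the Nr4a genes, which encode orphan nuclear receptors induced by the T cell receptor, all 3 had negative fold changes. Nr4a1 (ENSMUSG00000023034.7, chromosome 15, 101254269 to 101274795 on GRCm38, as are the coordinates of the genes below), the gene of Nur77 and a common reporter of receptor signal strength, was measured in replicate order at 44.7, 31.2, 47.5, 54.6 and 54.6 CPM in the WT/mut libraries, against 102, 65.9, 54.4 and 72.6 CPM in the WT libraries. WT replicate 1 was the highest library and WT/mut replicate 7 the lowest, and WT/mut replicates 9 and 10 lay just above WT replicate 4, so the groups overlapped slightly. The log2 fold change was -0.66 ± 0.20 (± SE here and below), with an edgeR unadjusted p of 0.00684 and an adjusted p of 0.276. The fold change was -0.46 without WT replicate 1 and 0.10 with the plasma cell marker share in the fit. Nr4a2 was measured at 0.721, 4.77, 1.54, 2.56 and 2.44 CPM in the WT/mut libraries, against 8.45, 7.31, 3.37 and 1.87 CPM in the WT libraries, on 24 to 305 counts per library. Its fold change of -1.12 ± 0.56 had an adjusted p of 0.443, and its values in the groups overlapped. Nr4a3 spanned 1.78 to 5.09 CPM over WT/mut and 1.77 to 6.20 CPM over WT libraries (-0.22 ± 0.43, adjusted p = 0.864).

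The Egr genes encode zinc finger transcription factors, and Egr2 with Egr3 is known to restrain T cell activation and to be required for Tfh cells. Egr1 was measured at 229, 199, 226, 186 and 259 CPM in the WT/mut libraries, against 314, 288, 281 and 271 CPM in the WT libraries. All 5 WT/mut libraries lay below all 4 WT libraries. Its log2 fold change was -0.39 ± 0.11, with an edgeR unadjusted p of 0.00347 and an adjusted p of 0.237. Egr2 (ENSMUSG00000037868.15, chromosome 10, 67535475 to 67542188) was measured at 174, 162, 182, 154 and 193 CPM in the WT/mut libraries, against 264, 231, 206 and 209 CPM in the WT libraries. Again the groups did not overlap, and the fold change was -0.39 ± 0.10, with an edgeR unadjusted p of 0.00304 and an adjusted p of 0.221. Separate ranges were found for 4 members, 3 lower in WT/mut cells (Egr1, Egr2 and Nfkbid) and 1 higher (Cd44), beside 4.46% of all tested genes, 2.4% lower and 2.06% higher. In the 9 fits that each left out 1 library, the log2 fold change of Egr1 ranged from -0.46 to -0.33 and Egr2 from -0.43 to -0.31. Given the plasma cell share in the fit, they stood at -0.27 and -0.24, with unadjusted p of 0.223 and 0.266 from edgeR. Egr3, at 4.76 ± 0.915 CPM over the WT/mut libraries and 3.82 ± 0.916 CPM over the WT libraries (SD, n = 5 and 4), differed in sign (0.32 ± 0.28, adjusted p = 0.647).

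**Figure D3:**
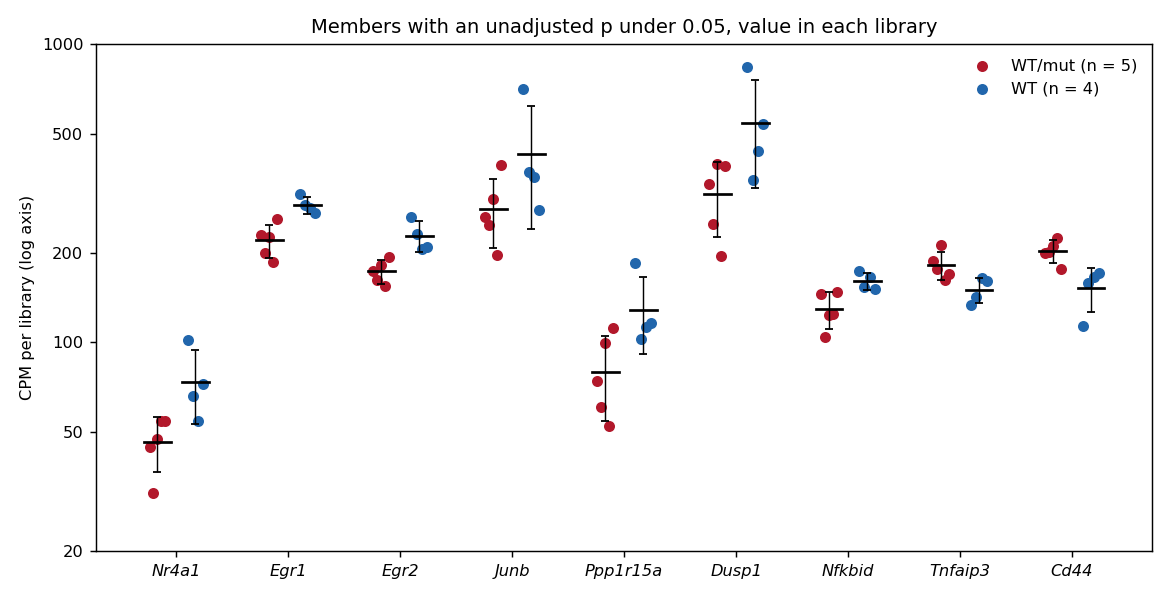
CPM in each library, on a log axis, of the 9 members with an unadjusted p under 0.05, with WT/mut left of WT. Points are libraries, horizontal lines group means and vertical bars the SD. The groups are separate for Egr1, Egr2, Nfkbid and Cd44, and WT replicate 1, drawn first in each WT group, is the highest of the 9 libraries for the 7 lower members and the lowest for Tnfaip3 and Cd44.

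Fos and Jun encode the classic pair of AP-1 subunits. Fos was measured at 40.6, 23.3, 34.4, 31.0 and 97.8 CPM in the WT/mut libraries, against 53.4, 72.7, 79.8 and 66.7 CPM in the WT libraries. WT/mut replicate 10 was the highest library of all 9, while the other 4 WT/mut libraries lay below every WT library. The fold change of Fos was -0.58 ± 0.35 (edgeR adjusted p = 0.503), and without WT/mut replicate 10 it was -1.07. Jun was measured at 106, 156, 235, 151 and 373 CPM in the WT/mut libraries, against 246, 269.5, 271 and 241 CPM in the WT libraries. WT/mut replicate 10 was again highest and WT/mut replicate 6 lowest, so that the WT/mut libraries enclosed the 4 WT libraries, which lay close together. Its fold change was -0.33 ± 0.29 (edgeR adjusted p = 0.651), or -0.66 without WT/mut replicate 10. Junb (ENSMUSG00000052837.6, chromosome 8, 84974484 to 84978718) was measured at 264, 247, 301, 196 and 392 CPM in the WT/mut libraries, against 707, 372, 359 and 278 CPM in the WT libraries. WT replicate 1 stood far above the other libraries, and the remaining ranges overlapped. Its fold change was -0.61 ± 0.26, with an edgeR unadjusted p of 0.0384, an adjusted p of 0.388, and a value of -0.26 without WT replicate 1.

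Jund stood at 224 ± 59.4 CPM over the WT/mut libraries and 276 ± 55.4 CPM over the WT libraries (-0.30 ± 0.19, adjusted p = 0.526). The library kit keeps no strand information, which mixes the reads of overlapping genes on opposite strands. Exons of Junb overlap those of Prdx2 on the other strand by 173 bases, and exons of Jund overlap those of Gm11175 by 877. Over the 9 libraries Prdx2 had 29313 counts beside 110120 for Junb, and Gm11175 had 1018 beside 79365 for Jund. Fosb, at 1.39 ± 0.417 CPM over the WT/mut libraries and 1.20 ± 0.677 CPM over the WT libraries, and Fosl2, the gene of Fra-2, at 2.11 ± 0.696 CPM over the WT/mut libraries and 1.68 ± 0.424 CPM over the WT libraries, were near the lower limit of the test (0.21 ± 0.58 and 0.34 ± 0.40, adjusted p = 0.905 and 0.750). Atf3, a stress-induced partner of AP-1 subunits, did not reach the count filter. It had 105 counts over 3 of 5 WT/mut libraries and 0 over the 4 WT libraries. Pooled over libraries, it was at least 31.5-fold higher in WT/mut against a floor of 3 counts over the WT group. That bound covers counting error only and leaves out the spread among libraries. Of the 105 counts 57 were in WT/mut replicate 6, without which the bound was 17.98-fold. WT/mut replicates 7 and 10 also had 0 counts, so the groups overlapped.

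Ier2, Ier3 and Ier5 encode early response proteins, and Ppp1r15a encodes GADD34, which directs a phosphatase to the translation factor eIF2-alpha after stress. Ppp1r15a (ENSMUSG00000040435.12, chromosome 7, 45522916 to 45526268), whose window holds TGACGTCA just before the start, was measured at 74.2, 60.9, 99.1, 52.5 and 112 CPM in the WT/mut libraries, against 184, 103, 112 and 116 CPM in the WT libraries. WT replicate 1 was far above the other WT libraries, and WT/mut replicate 10 was above WT replicate 3, so the groups overlapped. Its fold change was -0.69 ± 0.24, with an edgeR unadjusted p of 0.0146, an adjusted p of 0.321, and a value of -0.46 without WT replicate 1. Ier2, at 55.0 ± 7.94 CPM over the WT/mut libraries and 70.2 ± 17.2 CPM over the WT libraries, had a fold change of -0.35 ± 0.17 (adjusted p = 0.428). Ier5, at 106 to 136 CPM over WT/mut and 112 to 166 CPM over WT libraries, had one of -0.14 ± 0.13 (adjusted p = 0.682). Ier3 stayed under 2 CPM in every library (-0.13 ± 0.71, adjusted p = 0.954). Myc, the growth regulator, stood at 24.5 ± 2.71 CPM over the WT/mut libraries and 23.3 ± 6.31 CPM over the WT libraries (0.07 ± 0.19, adjusted p = 0.896).

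Of 6 feedback genes of the MAP kinase branch, 1 had a negative fold change and 5 a positive one. Dusp1 (ENSMUSG00000024190.6, chromosome 17, 26505590 to 26562128) was measured at 340.3, 249, 396, 195 and 389.5 CPM in the WT/mut libraries, against 840.3, 349, 438 and 541 CPM in the WT libraries. WT replicate 1 was the highest library and WT/mut replicate 9 the lowest, and WT replicate 3 lay within the WT/mut range. The fold change of -0.79 ± 0.26 had an edgeR unadjusted p of 0.0125 and an adjusted p of 0.312, and was -0.49 without WT replicate 1. The other 5 feedback genes all had positive fold changes, none with an unadjusted p under 0.05. Dusp2, a nuclear MAP kinase phosphatase, was at 0.18 ± 0.23. Dusp4 and Dusp5, which act on ERK in the nucleus, were at 0.05 ± 0.14 and 0.27 ± 0.24. Dusp6, which acts on ERK in the cytoplasm, was at 0.10 ± 0.15, and Spry1, an inhibitor of Ras signalling, at 0.27 ± 0.16. The lowest unadjusted p of these 5 was 0.121, for Spry1. Dusp2 spanned 80.4 to 117 CPM over WT/mut and 55.8 to 124 CPM over WT libraries, in which WT replicates 1 and 5 were low and WT replicate 4 was highest.

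The NF-kB genes include both activators of the pathway and its brakes. Nfkbid (ENSMUSG00000036931.15, chromosome 7, 30421732 to 30428746), the gene of the nuclear inhibitor IkappaBNS, was measured at 146, 104, 123, 124 and 148 CPM in the WT/mut libraries, against 173, 153, 165 and 151 CPM in the WT libraries. The lowest WT library, replicate 5, lay just above the highest WT/mut library, replicate 10. Its fold change was -0.31 ± 0.11, with an edgeR unadjusted p of 0.0175 and an adjusted p of 0.329. Tnfaip3 (ENSMUSG00000019850.11, chromosome 10, 19000910 to 19015657), the gene of the ubiquitin-editing enzyme A20, was measured at 187, 177, 212, 162 and 169.8 CPM in the WT/mut libraries, against 134, 142, 164 and 161 CPM in the WT libraries. WT/mut replicate 9 lay below WT replicate 4, and the other WT/mut libraries lay above every WT library. Its fold change was 0.27 ± 0.11, with an edgeR unadjusted p of 0.0250 and an adjusted p of 0.350. Nfkbia (0.06 ± 0.14, adjusted p = 0.885) and Rel, the gene of the NF-kB subunit c-Rel (-0.28 ± 0.17, adjusted p = 0.506), overlapped between groups.

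The surface receptor gene Cd44 (ENSMUSG00000005087.17, chromosome 2, 102811141 to 102901665), which encodes the hyaluronan receptor of activated and memory T cells, was measured at 199, 202, 209.6, 224 and 176 CPM in the WT/mut libraries, against 114, 158, 165 and 171 CPM in the WT libraries. All 5 WT/mut libraries lay above all 4 WT libraries, and WT replicate 1 was the lowest. The fold change was 0.41 ± 0.13, with an edgeR unadjusted p of 0.00729 and an adjusted p of 0.278, and it was 0.30 without WT replicate 1. Cd69, whose protein holds activated cells in tissue, stood at 411 ± 42.3 CPM over the WT/mut libraries and 439 ± 62.7 CPM over the WT libraries, with a fold change of -0.09 ± 0.11 and an adjusted p of 0.758.

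None of the 3 RNA-decay genes had an unadjusted p under 0.05. Zfp36, the gene of tristetraprolin, which binds AU-rich elements and speeds decay of early transcripts, stood at 158 ± 12.1 CPM over the WT/mut libraries and 154 ± 34.6 CPM over the WT libraries (0.04 ± 0.15, adjusted p = 0.941). Its relative Zfp36l1 stood at 76.3 ± 8.68 CPM over the WT/mut libraries and 86.4 ± 6.24 CPM over the WT libraries (-0.18 ± 0.11, adjusted p = 0.513), with exons that overlap those of Gm26669 by 1672 bases on the other strand. Btg2 stood at 368 ± 11.8 CPM over the WT/mut libraries and 351 ± 49.9 CPM over the WT libraries, and the SD in WT/mut cells was small beside its mean (0.07 ± 0.10, adjusted p = 0.799). A p that misses the threshold does not show that these levels are equal.

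Single libraries stood out across members. Of the 33 members, WT replicate 1 was the highest of the 9 libraries for 13 and the lowest for 8, and WT/mut replicate 9 was the highest for 2 and the lowest for 8. WT/mut replicate 7 was highest for 0 and lowest for 5. Within the WT/mut group, replicate 10 was highest for 13 members and replicate 9 lowest for 13. Over the 25 members with a mean above 20 CPM, WT/mut replicate 10 lay on average 0.26 above the mean of the other WT/mut libraries on the log2 scale. Taken in the same way, the deviations of WT/mut replicates 7 and 9 were -0.18 each. The mean log2 CPM of all 33 members ran from 5.24 to 5.55 in WT/mut and from 5.36 to 5.63 in WT libraries. These values are given without a test, since the members were chosen together.

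**Figure D4:**
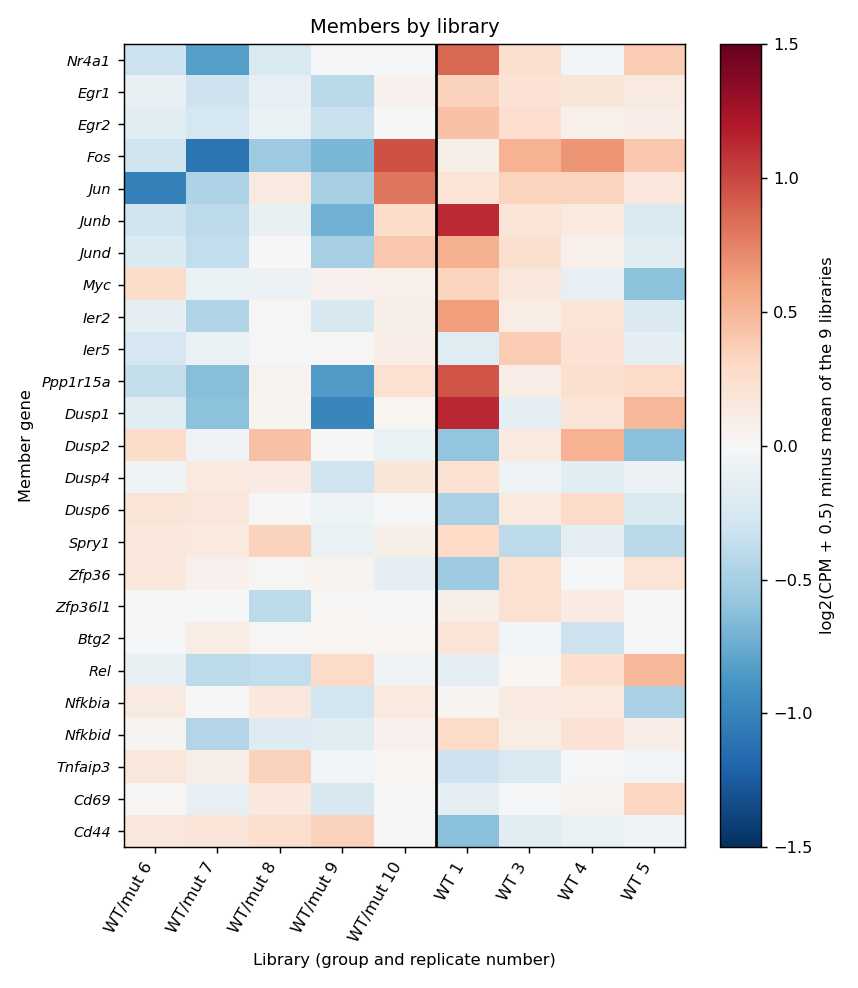
Each of 25 members with a mean above 20 CPM by library, as log2(CPM + 0.5) minus the mean of the 9 libraries, with WT/mut libraries left of the black line. WT replicate 1 is red for Junb, Dusp1, Ppp1r15a and Nr4a1 and blue for Cd44 and Zfp36, and WT/mut replicate 10 is red for Fos and Jun.

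Abundant members mostly varied little within groups, and rare ones more. The edgeR dispersion of Btg2, Egr2, Tnfaip3 and Egr1 stood at the percentiles 5.41, 6.22, 6.57 and 7.00 of all tested genes. The 7 tested members under 10 CPM in WT cells stood at percentiles from 55.2 to 84.2. Above 20 CPM the widest was Fos, at 61.6, followed by Jun, at 56.8, Dusp1, at 53.9, Junb, at 53.5, and Ppp1r15a, at 50.8. The percentiles were taken over tested genes of every level and were not adjusted for level. The median over the 32 tested members was 38.7.

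Other genes of the same response were read from a list of 60 early genes. The list was chosen with earlier results of these data known, so its counts and calls are no independent support. Of its genes 55 were tested. Of these, 8 were lower and 4 higher at an unadjusted p under 0.05, or 21.8%, beside 12.2% of all tested genes (6.46% lower and 5.69% higher), and the median log2 fold change was -0.05. Klf10, an early TGF-beta and growth signal target, fell in WT/mut cells, at 79.8 ± 8.38 CPM over the WT/mut libraries and 162 ± 40.9 CPM over the WT libraries (-1.02 ± 0.15, adjusted p = 0.0344, edgeR), and was the gene of the list that passed after adjustment. Without 1 library each its fold change ran from -1.10 to -0.82, and it passed without WT replicate 1 or WT replicate 4 only. Without any one of the 5 WT/mut libraries, WT replicate 3 or WT replicate 5, its edgeR adjusted p lay between 0.0687 and 0.123. With the plasma cell marker share in the fit its fold change was -0.59, with an edgeR adjusted p of 0.999. The 3 genes of next lowest p did not pass. They were Bhlhe40, a basic helix-loop-helix repressor, at 64.5 ± 4.75 CPM over the WT/mut libraries and 92.3 ± 7.96 CPM over the WT libraries (-0.51 ± 0.10, adjusted p = 0.0922), Zfp36l2, an RNA-decay relative of Zfp36, at 301 ± 57.5 CPM over the WT/mut libraries and 197 ± 26.3 CPM over the WT libraries (0.62 ± 0.14, adjusted p = 0.165), and the kinase gene Plk3, at 92.3 ± 19.8 CPM over the WT/mut libraries and 143 ± 38.6 CPM over the WT libraries (-0.63 ± 0.19, adjusted p = 0.276).

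The list of 46 genes that carry the signal to early genes was tested in full, and 4 were lower and 6 higher at an unadjusted p under 0.05, or 21.7%, beside the same 12.2% of all tested genes. After adjustment edgeR called 0 and DESeq2 called 3, 2 lower and 1 higher. Map2k1, the ERK kinase MEK1, stood at 159 ± 10.0 CPM over the WT/mut libraries and 129.9 ± 9.56 CPM over the WT libraries (0.29 ± 0.09, adjusted p = 0.276, edgeR). Creb1, a factor that binds TGACGTCA, stood at 98.5 ± 12.1 CPM over the WT/mut libraries and 72.1 ± 14.8 CPM over the WT libraries (0.45 ± 0.15, adjusted p = 0.312, edgeR). The sum of the 46 was 6643 to 6869 CPM over WT/mut and 6563 to 6865 CPM over WT libraries.

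Heat shock and stress genes, which mark handling of cells, were also read, since such handling is known to induce early genes. Of 17 tested, 2 were higher and 0 lower at an unadjusted p under 0.05, or 11.8%, beside 12.2% of all tested genes. Their sum was 4644 to 6178 CPM over WT/mut and 4020 to 6362 CPM over WT libraries, so that the groups overlapped. The sum hides differences between single genes. In WT replicate 1 Hspa1a, at 22.6 CPM, and Hspa1b, at 115 CPM, were the lowest of the 9 libraries. In the same library Dnajb4, at 14.0 CPM, and Trib3, at 8.99 CPM, were the highest. The chaperone gene Hsph1 was at 0.63 ± 0.23, adjusted p = 0.329, Hsp90ab1 at 0.46 ± 0.19, adjusted p = 0.383, Dnajb1 at -0.38 ± 0.18, adjusted p = 0.416 and Hsp90aa1 at 0.46 ± 0.23, adjusted p = 0.451. The part of handling in the member values was not tested.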

How the data were processed

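Sorted Peyer's patch Tfh cells of 5 WT/mut and 4 WT libraries were measured by RNA-seq from 300 pg of RNA with a SMART-Seq kit without strand information, per the labels. The deposited values are expected counts (RSEM-style estimates, 11.1% to 18.3% of them not whole), unscaled between libraries. The tools that the submitters' processing notes name are RSEM 1.3.0, STAR 2.5.3, cutadapt 2.10 and DESeq2, on mm10, with no annotation release. Of 54146 identifiers, 54079 were found in GENCODE M21 and 52480 with the same version.

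Counts were rounded to whole numbers and fitted on the whole table with edgeR 4.0.16 (R 4.3.3; robust quasi-likelihood F test, TMM factors, no covariate) over the 15521 genes left by filterByExpr at a minimum count of 10 and total of 15, with Benjamini-Hochberg adjustment over them. The SE was taken as the size of the log2 fold change over the root of F. CPM uses TMM-scaled library sizes. The floor of 3 counts covers counting error only. DESeq2 1.42.0, limma 3.58.1 with voom, other factors and filters, covariates and leaving out each library were alternatives. The genes of lowest p named from the lists were put through them after the data were seen.

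The members and all lists were chosen with earlier results of these data known. Named are all members, with every library shown for those with an unadjusted p under 0.05, and the 4 genes of lowest p in each of 3 lists, which include each called gene; some of these are not reported here. Fos, Jun and Nr4a2 are given in every library by choice after their values were seen. Hspa1a, Hspa1b, Dnajb4 and Trib3 are named by the same kind of choice and were not put through the alternatives. A comparison of Egr and Nr4a protein sequences was not run.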

Additional observations from a re-analysis of the deposited data

Results flagged for a closer look

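Within each group of libraries, a value was set apart when its gap to the nearest other library took most of the group's range (Dixon's test). Of 69 sets of values examined, 5 were set apart, 4 of them values of members, and about 5% are expected by chance alone. Fos had 97.8 CPM in WT/mut replicate 10, against 23.3 to 40.6 CPM in the other 4 WT/mut libraries. Ppp1r15a had 184 CPM in WT replicate 1, against 102 to 116 CPM in the other 3 WT libraries. Fosl2 had 1.04 CPM in WT replicate 1, against 1.84 to 1.95 CPM in the other WT libraries, at a low level throughout. Zfp36l1 had 60.9 CPM in WT/mut replicate 8, against 78.9 to 81.5 CPM in the other WT/mut libraries. WT/mut replicate 7 had 30143 genes with a count, against 19137 to 20264 in the other WT/mut libraries. Without it, 7 members were lower and 2 higher at an unadjusted p under 0.05, as many as with it, but with Nr4a2 in place of Junb.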

How the results depend on the processing

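No paired analysis was possible because the groups share no replicate number. Over 22 alternatives (21 planned, and 1 chosen after the data were seen, which left out WT/mut replicate 7 and WT replicate 1 together), 0 of 32 members passed the adjusted threshold except with DESeq2, which called 2, and 16 members kept their sign in all of them. The count of all genes called was 19. It was 499 with DESeq2, 29 with limma-voom and library weights, 1 with the number of detected genes, 0 with the plasma cell marker share, 5 with the epithelial marker share, 1 without the 2 libraries and 2 to 23 without 1 library each. Members with an unadjusted p under 0.05 numbered 9 (7 lower and 2 higher). They numbered 0 with the plasma cell marker share (0 lower and 0 higher), 5 without the 2 libraries (3 lower), and 6 to 13 without 1 library each (4 to 11 lower and 1 to 2 higher). The median log2 fold change of the members ran from -0.18 to 0.0041 without 1 library each.

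Among the members, signs turned in 29 of 703 values, and none of these members was called; the cause was not tested. With the plasma cell marker share, they were Nr4a1 (0.10), Fos (0.24), Jun (0.42), Jund (0.12), Dusp2 (-0.49), Dusp6 (-0.33), Zfp36 (-0.16), Nfkbia (-0.16) and Rel (0.0302). With the epithelial share, they were Nr4a3 (0.31), Ier3 (0.20), Dusp4 (-0.14) and Btg2 (-0.0363). Of the genes of lowest p named from other lists, Dnajb1 turned, to 0.0303 with the plasma cell share. DESeq2 also called Bhlhe40, Zfp36l2 and Map2k1. The call of Klf10 was lost in 7 of 9 fits without 1 library, with the number of detected genes (-0.97, adjusted p = 0.129), with the epithelial share (-1.06, adjusted p = 0.0975) and with the plasma cell share (-0.59). Ier3 stood at 0.0522 with limma-voom and Zfp36 at -0.0194 with library weights. Without the 2 libraries Fosb stood at -0.0269, Dusp6 at -0.0562 and Zfp36 at -0.12. Without 1 library each, values ran from -0.57 to 0.25 for Ier3, -0.13 to 0.46 for Fosb, -0.0196 to 0.23 for Dusp6, -0.10 to 0.12 for Zfp36, -0.46 to 0.07 for Nr4a3, -0.0047 to 0.16 for Btg2, -0.15 to 0.0057 for Cd69, -0.0851 to 0.22 for Myc and -0.0672 to 0.14 for Nfkbia.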
